A study of Mus musculus with 2 samples.

Results

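Lymphatic endothelial cells line the vessels that drain fluid, lipid and immune cells from tissue. In the stromal vascular fraction (SVF) of gonadal white adipose tissue (gWAT) they were found here as 67 of 4839 cells that passed the cell filter, 53 of 3881 in the control library and 14 of 958 in the Adipo-Pgam1 KO library. A cell was a member when it had at least 500 detected genes and at most 10% of its unique molecular identifiers (UMIs, counted transcript molecules) from mitochondrial genes, when Prox1, Mmrn1, Ccl21a and Flt4 summed to at least 3 UMIs with at least 1 from Prox1, Mmrn1 or Flt4, and when it had no Ptprc UMI and fewer than 10 Dcn UMIs. Ptprc (CD45) marks leukocytes and Dcn (decorin) marks fibroblasts. These counts chose the members, so the levels of the 4 genes are given as a description.

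The study deleted Pgam1, which encodes the glycolytic enzyme phosphoglycerate mutase, in adipocytes. Both libraries came from male C57BL/6 mice aged 13 weeks, 1 library per genotype, with cells captured in droplets and counted from transcript 3′ ends. KO mice carried Pgam1 flox/flox alleles and Adipoq-Cre, and control mice were littermates, labelled wildtype and described in the methods as Pgam1 flox/flox without Cre. Adipoq-Cre is driven by the adiponectin promoter, which is active in adipocytes, and recombination in endothelial cells was not measured here. The number of mice behind each library is not given in the sources used here. With 1 library per genotype there was no test of a difference between genotypes, and every interval below is a 95% interval for counting error only. Of the barcodes, 9 occurred in both libraries, and none of these was a lymphatic cell.

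Lymphatic endothelium arises from veins under the control of the transcription factor Prox1, which is also needed to keep its identity. Flt4 (VEGFR3) is the receptor for the lymphatic growth factors VEGF-C and VEGF-D, and Ccl21a is a chemokine that draws dendritic cells and T cells into lymphatic capillaries. Capillaries carry the hyaluronan receptor Lyve1, whereas collecting vessels hold valves, whose formation needs Foxc2.

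The control members held 327167 UMIs, with a median of 5813 per cell (1124 to 17887) and 2459 genes, and the KO members 117878 UMIs, with a median of 7245.5 (1499 to 15549) and 2880.5 genes. Mitochondrial genes gave a median of 4.28% and 5.50% of the UMIs. The share of kept cells was 1.37% in the control (exact Clopper-Pearson interval 1.02 to 1.78%) and 1.46% in the KO library (0.801 to 2.44%). Blood endothelial cells, chosen by Pecam1, Cdh5 and Egfl7 with no Prox1 or Mmrn1 UMI among the cells that were not lymphatic members, numbered 127 and 49. Lymphatic cells made up 29.4% of the endothelial cells in the control (22.9 to 36.7%) and 22.2% in the KO library (12.7 to 34.5%), with overlapping intervals. These shares also depend on how well each cell type was released by collagenase and Dispase. A further 61 control and 5 KO barcodes met the marker rule and failed the filter on genes or mitochondrial UMIs.

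Prox1 (chr1:190118035-190170714, GRCm38) was detected in 50 of 53 control cells, with a median of 6 UMIs per cell (0 to 19), and in 12 of 14 KO cells, with a median of 6 (0 to 16). Mmrn1 (chr6:60924976-60989378), which encodes the secreted protein multimerin 1, was detected in all 53 control cells with a median of 31 UMIs (1 to 92), and in 12 KO cells with a median of 25.5 (0 to 68). For Ccl21a (chr4:42772860-42773993) the medians were 100 UMIs (0 to 523) and 30.5 (0 to 451), and for Flt4 (chr11:49609263-49652739) 8 (0 to 39) and 6 (0 to 20). All 4 genes were detected in 45 control and 8 KO cells. At the limit of the rule, 1 control and 2 KO cells had a sum of 3 to 5 UMIs of the 4 genes, beside 60 and 15 cells outside it with a sum of 1 or 2.

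The markers that the rule did not use were Reln, which encodes the extracellular glycoprotein reelin, and Lyve1. Reln (chr5:21884454-22344702) was detected in 51 control cells with a median of 10 UMIs (0 to 30) and in 11 KO cells with a median of 7.5 (0 to 25). Lyve1 (chr7:110850607-110863239) was detected in 44 control cells with a median of 25 (0 to 103), and in 9 KO cells with a median of 3 (0 to 38). In lymphocytes, which should lack these genes and show the level of free RNA, 1.44% of control cells had a Reln UMI and 2.69% a Lyve1 UMI, at a median of 4659 UMIs per cell. In lymphatic cells of the control library these shares were 96.2% (87.0 to 99.5%) for Reln and 83.0% (70.2 to 91.9%) for Lyve1. With every cell thinned to 2000 UMIs, which left out 4 control cells and 1 KO cell, Lyve1 was detected in 77.6% of the control (63.4 to 88.2%) and 46.2% of the KO lymphatic cells (19.2 to 74.9%).

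**Figure D1:**
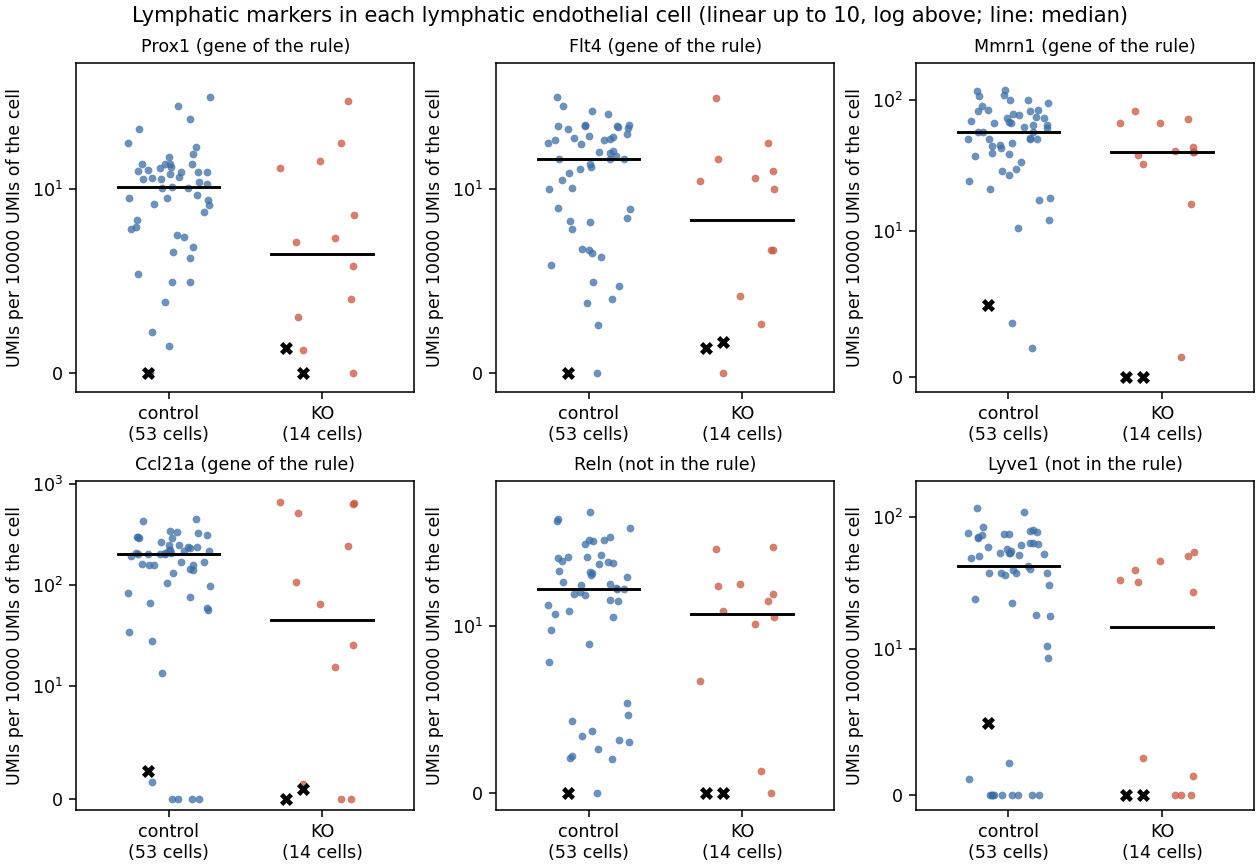
UMIs per 10000 UMIs of the cell for 6 lymphatic markers, each point 1 lymphatic endothelial cell of the control (53 cells) or KO library (14 cells), on an axis that is linear up to 10 and logarithmic above. Lines are medians and crosses the 3 members with at least 5 Flt1 or at least 10 Lyz2 UMIs, which lie low for every marker. Lyve1 and Ccl21a spread from 0 to the highest values in both libraries.

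The label held for most members and was doubtful for 3. In the control library, 1 cell had 27 UMIs of Lyz2 (lysozyme, of myeloid cells) and 18 of Pf4, with 2 Mmrn1 UMIs, 1 Ccl21a UMI and none of Prox1, Flt4 or Reln. In the KO library, 1 cell had 16 UMIs of Flt1 (VEGFR1, of blood endothelium), 34 of Pecam1 and 51 of Plvap, and another had 8 of Flt1, 29 of Pecam1 and 63 of Cd36. Neither KO cell had a Mmrn1, Reln or Lyve1 UMI. The KO cell with 16 Flt1 UMIs did have 2 UMIs of Prox1 and 2 of Flt4. The other had 2 of Flt4 and 1 of Ccl21a and none of Prox1. All 3 cells were at the limit of the rule, with sums of 3 or 4. No other member had more than 1 Flt1 UMI. Leaving them out left 52 control and 12 KO cells, and values without them are given below beside the counts of genes and for some of the lists and genes. This limit (at least 5 Flt1 or at least 10 Lyz2 UMIs) was chosen after the values were seen.

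The 5 erythroid genes were high in the control members, with 3762 UMIs in sum (11499 CPM) beside 6228 CPM in blood endothelium and 10087 CPM in lymphocytes of that library, and in the KO library they were at 823 CPM in the members, 1450 CPM in blood endothelium and 4958 CPM in lymphocytes. Hbb-bs was the most abundant, and 1665 of its 2003 UMIs in the control members were in 1 cell and 161 in another. Of the blood endothelial genes, Kdr among them, 1079 UMIs were found in the control (3298 CPM) and 818 in the KO members (6939 CPM). In blood endothelium these genes were at 14822 and 15580 CPM. Over all members 10 of these genes were compared between the libraries, with a median log2 ratio of KO over control of 1.08. Without the cells with Flt1 or Lyz2, 6 were compared, with a median of -0.067. A KO cell with Flt1 held 51 of the 107 Plvap UMIs of the KO members. Of 8 macrophage markers, all had UMIs in the control cells, 124 in sum (379 CPM, the UMI count scaled to 1e6 UMIs of the group), with Lyz2 the most abundant at 44, and 6 of 8 were at 0 in the KO cells. Of 7 fibroblast markers outside the rule, control cells held 58 UMIs and KO cells 11. Lymphocyte markers gave 12 and 0 UMIs, mesothelial markers 2 and 0, and pericyte and smooth muscle markers 23 and 19. Adiponectin (Adipoq), the gene whose promoter drives Cre, was at 0 in both.

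Against blood endothelium of the same library, the lymphatic cells had higher levels of the lymphatic markers outside the rule and lower levels of the capillary genes for fatty acid uptake. Levels are sums of UMIs across all cells of 1 kind. Of 3163 genes compared in the control library, 329 were higher in lymphatic cells by 2-fold or more (10.4%) and 422 were lower by as much (13.3%). In the KO library, 900 genes could be compared, with 85 higher (9.44%) and 98 lower (10.9%). Without the cells with Flt1 or Lyz2 the counts were 328 (10.5%) and 418 (13.4%) of 3120 genes in the control, and 73 (11.1%) and 93 (14.1%) of 660 in the KO library. Of the 84 genes higher in the control among the 896 compared in both libraries, the KO library had 81 higher, 62 of them by 2-fold or more. Of 147 genes lower in the control, the KO library had 141 lower, 72 of them by 2-fold or more. The 2 gates select opposite cells, so these counts describe the cells and test nothing.

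The list of 18 lymphatic markers outside the rule had 16 members with enough UMIs to compare, and all 16 were at least 2-fold higher in lymphatic cells of the control library, with a median log2 ratio of 6.13 beside 0.01 over all genes. In the KO library 10 were compared, 9 (all but Nrp2) were at least 2-fold higher and the median was 5.49, or 5.82 without the 2 cells with Flt1. Lyve1 had 1372 UMIs in lymphatic cells (4194 CPM) and 2 in blood endothelial cells (2.91 CPM) of the control library. Its log2 ratio was 10.49 (8.64 to 13.54). For Reln the sums were 618 and 2 UMIs (9.34, 7.48 to 12.39). Pard6g, which encodes a cell polarity protein, had 297 and 0 UMIs, at least 7.70 log2 units higher when 0 was set to 3 UMIs. In the KO library the UMIs in lymphatic and blood cells were 139 and 1 for Lyve1, 103 and 1 for Reln, and 42 and 0 for Pard6g, the same order in both libraries.

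Other genes far above blood endothelium were Thy1, a surface glycoprotein, with 241 and 3 UMIs (log2 ratio 7.40, 5.84 to 9.69), Sema3d, a secreted guidance protein, with 146 and 0, and Nts, the precursor of neurotensin, with 119 and 1. Fxyd6, a regulator of the sodium pump, had 261 and 6 UMIs, and Igfbp5, which binds insulin-like growth factors, 1150 and 32. The highest 15 ratios also included Wipf3, Slc45a3, Adgrg3, Gpm6a, Dtx1 (an E3 ligase of the Notch pathway), Gm21541 and Lcn2 (lipocalin 2, which binds iron siderophores). Pdpn (podoplanin) had 97 and 2 UMIs, and Fgl2, a fibrinogen-like protein, 1132 and 33.

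Promoter windows of 300 bases around the start (250 before, 50 after) are shown for 4 of these genes, from RefSeq on GRCm38.p6, because Mmrn1 and Ccl21a define the cells and Reln and Pdpn are genes outside the rule. Capitals mark matches on either strand to the motif of SOX factors (AACAAT), the nuclear receptor half-site that Nr2f2 binds (AGGTCA) and the motifs of factors of the Gata family (AGATAA), the forkhead family (GTAAACA), the NFAT family (TGGAAA) and the ETS family (CCGGAA). Over 32851 promoter windows these letters occurred in 10.7%, 16.3%, 11.2%, 3.65%, 21.4% and 14.9%. No motif overlapped another in the 4 windows. The window of Mmrn1 lies inside the annotated gene, at chr6:60944067-60944366 on the plus strand, that of Reln at chr5:22344656-22344955, that of Ccl21a at chr4:42773942-42774241 and that of Pdpn at chr4:143299515-143299814, all 3 on the minus strand.
Mmrn1: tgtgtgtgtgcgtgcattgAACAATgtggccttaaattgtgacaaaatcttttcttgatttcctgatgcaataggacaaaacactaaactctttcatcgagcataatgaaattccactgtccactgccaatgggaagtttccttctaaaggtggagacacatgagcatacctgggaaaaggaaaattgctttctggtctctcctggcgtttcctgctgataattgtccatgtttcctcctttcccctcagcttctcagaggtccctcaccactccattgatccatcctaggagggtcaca
Reln: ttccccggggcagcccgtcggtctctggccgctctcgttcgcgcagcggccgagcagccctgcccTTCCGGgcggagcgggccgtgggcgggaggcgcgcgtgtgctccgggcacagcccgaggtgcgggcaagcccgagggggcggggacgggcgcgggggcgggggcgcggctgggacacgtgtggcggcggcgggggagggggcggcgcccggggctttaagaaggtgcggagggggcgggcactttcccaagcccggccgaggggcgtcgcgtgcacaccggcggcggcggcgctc
Ccl21a: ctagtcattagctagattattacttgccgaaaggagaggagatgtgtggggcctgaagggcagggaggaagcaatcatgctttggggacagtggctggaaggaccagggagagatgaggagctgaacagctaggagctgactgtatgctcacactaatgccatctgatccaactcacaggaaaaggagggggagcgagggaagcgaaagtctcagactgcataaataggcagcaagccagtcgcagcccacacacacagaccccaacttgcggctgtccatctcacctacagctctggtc
Pdpn: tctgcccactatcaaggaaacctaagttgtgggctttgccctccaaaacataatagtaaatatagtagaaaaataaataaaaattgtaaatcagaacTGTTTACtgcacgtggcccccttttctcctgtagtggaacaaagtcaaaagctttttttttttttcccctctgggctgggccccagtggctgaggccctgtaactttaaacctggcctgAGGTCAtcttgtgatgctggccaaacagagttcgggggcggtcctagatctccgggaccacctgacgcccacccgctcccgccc

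The Mmrn1 window held 1 SOX match, the Reln window 1 ETS match and the Pdpn window 1 forkhead match and 1 half-site. The Ccl21a window held none of the 6 motifs. The Reln window had 80.7% G and C bases and the Mmrn1 window 44.3%. A match is a run of letters and not evidence of binding.

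The Ccl21a counts need care because the gene has near-identical copies on chromosome 4. The transcript of Gm21541 (chr4:41903610-41904743) matched that of Ccl21a in 864 of 870 bases (99.3%), and the transcript of Gm13304 matched that of Ccl21a in 832 of 837. Counted from the 5′ end of the Ccl21a transcript, the Gm21541 transcript differs by G24A, T159A, C269T, C640T, T812C and G856A, of which the last lies 14 bases from the 3′ end. In lymphatic cells of the control library, Ccl21a had 5702 UMIs, Gm21541 109 and Ccl21b 7, and in those of the KO library 1421, 24 and 1, each summed over the identifiers that share the symbol. Reads could be split between these copies, so Gm21541 is uncertain as a separate gene. Of the 7427 Ccl21a UMIs in all barcodes of the control library, most were in the 53 members.

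**Figure D2:**
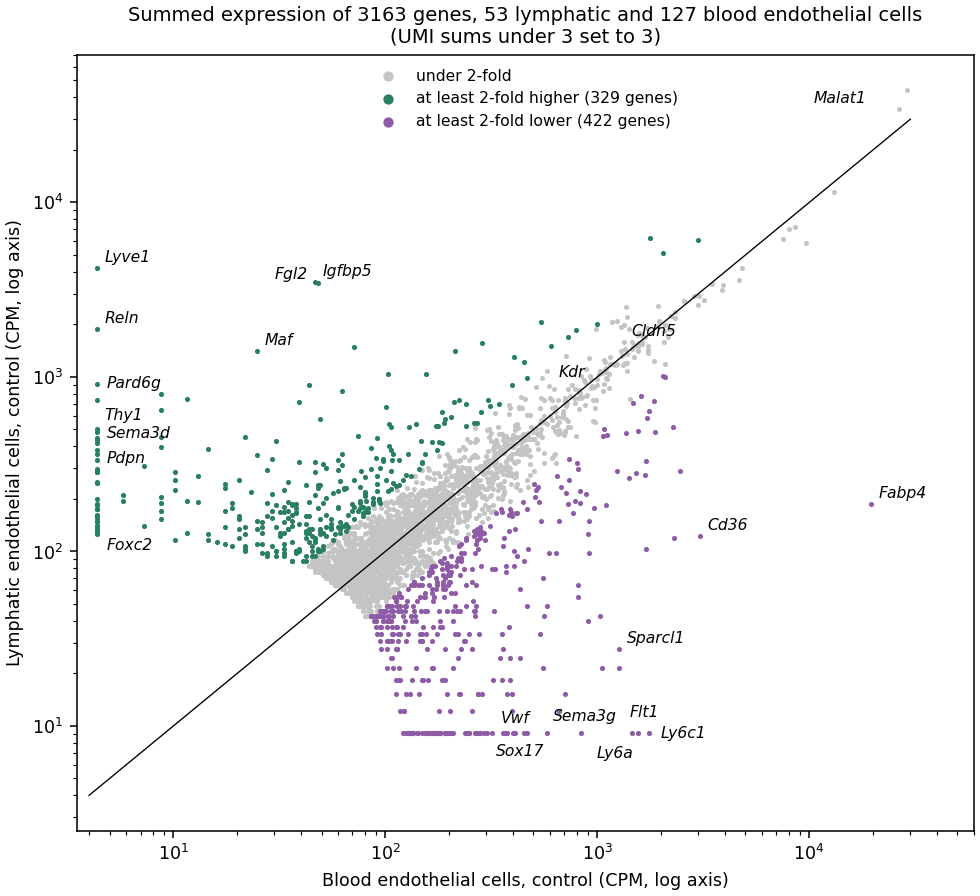
Summed expression of 3163 genes in lymphatic (y axis) and blood endothelial cells (x axis) of the control library, in CPM on log axes, with UMI sums under 3 set to 3 and the 4 rule genes left out. Green points are 329 genes higher and purple points 422 genes lower in lymphatic cells by 2-fold or more, with Lyve1 and Reln far above the line and Flt1, Ly6c1 and Fabp4 far below it.

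Among transcription factors of lymphatic fate other than Prox1, 11 of 13 could be compared, 5 were at least 2-fold higher and 2 lower (Klf2 and Gata2). Maf had 462 and 17 UMIs (log2 ratio 5.84, 5.14 to 6.63) and Tbx1 82 and 0. Nr2f2 (COUP-TFII), which acts with Prox1 in venous and lymphatic cells, had 459 and 147 (2.72, 2.44 to 2.99). Sox18, which switches on Prox1 in the embryo, had 162 and 453 UMIs (-0.41, -0.68 to -0.15), close to blood endothelium. Klf2, a flow-responsive factor, was 2.62 log2 units lower in the control library (90 and 1161 UMIs) but not in the KO library (170 and 366, 0.32, and -0.19 without the 2 cells with Flt1).

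In the control library the VEGF receptors separated the vessel types. Flt4 is a rule gene, with 503 UMIs in lymphatic and 39 in blood endothelial cells of the control library. Flt1 had 1 and 1067 UMIs (-8.99, -14.29 to -6.51), and the co-receptor Nrp1 had 7 and 872 (-5.89, -7.21 to -4.84). Kdr (VEGFR2) was present in both, with 355 and 397 UMIs (0.91, 0.70 to 1.12). The co-receptor Nrp2 had 234 and 145 (1.76, 1.46 to 2.07). Of the ligands, Vegfc had 1 and 131 UMIs, and Figf (VEGF-D) 4 and 7, so VEGF-C RNA was found almost wholly in the blood endothelial cells of this pair. Angpt2 (angiopoietin 2) had 36 and 12 (2.66, 1.68 to 3.74), and the phosphatase Ptprb 95 and 1691 (-3.08, -3.40 to -2.78). Of 4 VEGF receptor and co-receptor genes compared in the KO library, none was at least 2-fold higher and 2 were lower (Flt1 and Nrp1). Nrp2 was there below blood endothelium, by less than 2-fold, the other way from the control library. Without the 2 cells with Flt1 the interval of this Nrp2 ratio covered 0. By share of cells, Nrp2 was detected in 71.4% of KO lymphatic and 46.9% of KO blood endothelial cells.

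Of 24 blood endothelial genes compared in the control library, none was at least 2-fold higher and 19 were lower, with a median log2 ratio of -3.43. Of 18 compared in the KO library 9 were lower, with a median of -1.03, and without the 2 cells with Flt1 10 of 15, with a median of -2.99. Of all 26, 8 had no UMI in the 53 control cells (Vwf, Sox17, Gja5, Cd34, Selp, Rgcc, Ackr1 and Car4), beside 274 for Vwf and 309 for Sox17 in blood endothelial cells. The lowest 15 ratios were those of Ly6c1, Flt1, Ly6a, Fabp4, Sema3g, Kitl, Nrp1, Rbp7, Gja5, Fam101b, Sox17, Sparcl1, Tspan7, Fabp5 and Vwf. Of 20 genes that all endothelium shares, 8 were lower and none higher, with a median of -0.60, and Pecam1, Cdh5 and Egfl7 among them chose the blood endothelial cells. Cldn5, a tight junction protein, had 519 and 915 UMIs (0.25, 0.10 to 0.41). Jam2, an adhesion molecule of junctions, had 0 and 257 UMIs. In the KO library 1 of 14 genes that all endothelium shares was lower, with a median of -0.35, and without the cells with Flt1 3 of 13, with a median of -0.55.

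The genes by which adipose capillaries take up fatty acids were low in lymphatic cells. Of 10 compared in the control library, 8 were at least 2-fold lower and none higher, with a median of -4.70, and -4.92 without the cell with Lyz2. Of 9 compared in the KO library 8 were lower, with a smaller median of -1.62, and without the cells with Flt1 6 of 7, with a median of -2.29. Fabp4, a fatty acid carrier, had 61 UMIs in lymphatic and 13498 in blood endothelial cells (186 and 19618 CPM, log2 ratio -6.72, -7.10 to -6.36). Cd36, a fatty acid transporter, had 40 and 2101 (-4.64), Fabp5 1 and 280, and Aqp7, a glycerol channel, 1 and 219. Gpihbp1, which carries lipoprotein lipase to the capillary lumen, did not pass 2-fold in the control library, with 168 and 510 UMIs (-0.53, -0.79 to -0.28). The few Fabp4 UMIs of lymphatic cells cannot be told apart from free RNA, and 36.1% of the 61 were in 1 cell.

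In the matrix, 6 of 19 genes compared in the control library were higher, Reln included, and 10 lower, and 3 of 14 were higher and 6 lower in the KO library. Over all genes compared, 10.4% were higher and 13.3% lower in the control library, and 9.44% and 10.9% in the KO library. Without the cells with Flt1, 4 of 13 were higher and 7 lower in the KO library. The laminin chains Lama4 (177 and 72 UMIs, 2.37) and Lamb1 (83 and 42, 2.06) and the protease inhibitors Timp2 (515 and 197, 2.46) and Timp3 (1683 and 1406, 1.33) were higher in lymphatic cells of the control library. Lama5 (0 and 116 UMIs), the collagen chains Col4a1 (164 and 738, -1.10) and Col4a2 (49 and 455, -2.14), Sparc (39 and 1578, -4.27) and Sparcl1 (9 and 875, -5.53) were lower. Of 9 Notch genes compared in the control library 6 were lower, among them Notch4 (1 and 134 UMIs), Dll1 and Jag1, while the receptor Notch1 was not (173 and 281, 0.37). Of 2 compared in the KO library 1 was higher (Hes1) and none lower, with a median of 1.10. Without the cells with Flt1 only Hes1 was compared there, at 2.03. None of the 2 interferon response genes compared in the KO library passed 2-fold, whereas in the control library 6 of 7 were lower, such as Iigp1 (8 and 240, -3.83) and Isg15 (9 and 108, -2.51).

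For the lists that follow, the shares over all genes compared were 10.4% higher and 13.3% lower in the control library. They were 9.44% and 10.9% in the KO library. Of 6 leukocyte entry and survival genes compared in the control library, 2 were higher (Il7 and Stab1) and 3 lower (Vcam1, Selp and Cd200). Of 2 chemokine and scavenger receptor genes 1 was lower (Cxcl12), and Ackr3 passed 2-fold, as higher, only without the cell with Lyz2. In the KO library 1 of 3 leukocyte genes (Stab1) was higher and none lower, and again 1 of 2 chemokine genes was lower. Without the cells with Flt1, 1 of 2 leukocyte genes was higher (Stab1) and 1 lower (Cd200). Il7, a lymphocyte survival factor, had 46 UMIs in 26 lymphatic cells and 1 in blood endothelium of the control library (log2 ratio 6.60, 4.05 to 11.93), and 23 and 0 in the KO library. The chemokine scavenger Ackr2, with too few UMIs to be compared, had 37 and 0. Vcam1 and Selp, adhesion molecules for leukocytes, had no UMI in the control lymphatic cells, beside 93 and 87. The chemokine Cxcl12 had 14 and 708 (-4.59, -5.47 to -3.83). MHC class II genes depended on 1 cell. All 4 genes compared were higher in the control library with a median of 2.03, but the cell with Lyz2 held 80.5% of the 113 Cd74 UMIs, and without it Cd74 was the only one compared, at -0.40. Of the other lists in the control library, the medians were -0.84 for junction genes (1 of 13 higher, 6 lower), -0.80 for BMP and TGF-beta genes (1 of 9 higher, 4 lower), 0.21 for fatty acid oxidation genes and 0.30 for clock genes (none of 7 and none of 6 past 2-fold). The junction list holds Pecam1 and Cdh5, which chose the blood endothelial cells. Of 14 immediate early genes 4 were lower and none higher (median -0.32), whereas in the KO library 3 of 12 were higher and none lower (median 0.55), and without the cells with Flt1 2 of 11 were higher and 1 lower (0.58). Of 8 heat shock genes in the control library 1 was lower, near the share over all genes. Glycolysis genes were close to blood endothelium in the control library, with 1 of 7 lower (Ldha, 26 and 128 UMIs, -1.23) and a median of -0.26. That count was also near the share over all genes. In the KO library 1 of 3 was lower, with a median of -0.85, and without the cells with Flt1 1 of 2, with a median of -0.47.

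**Figure D3:**
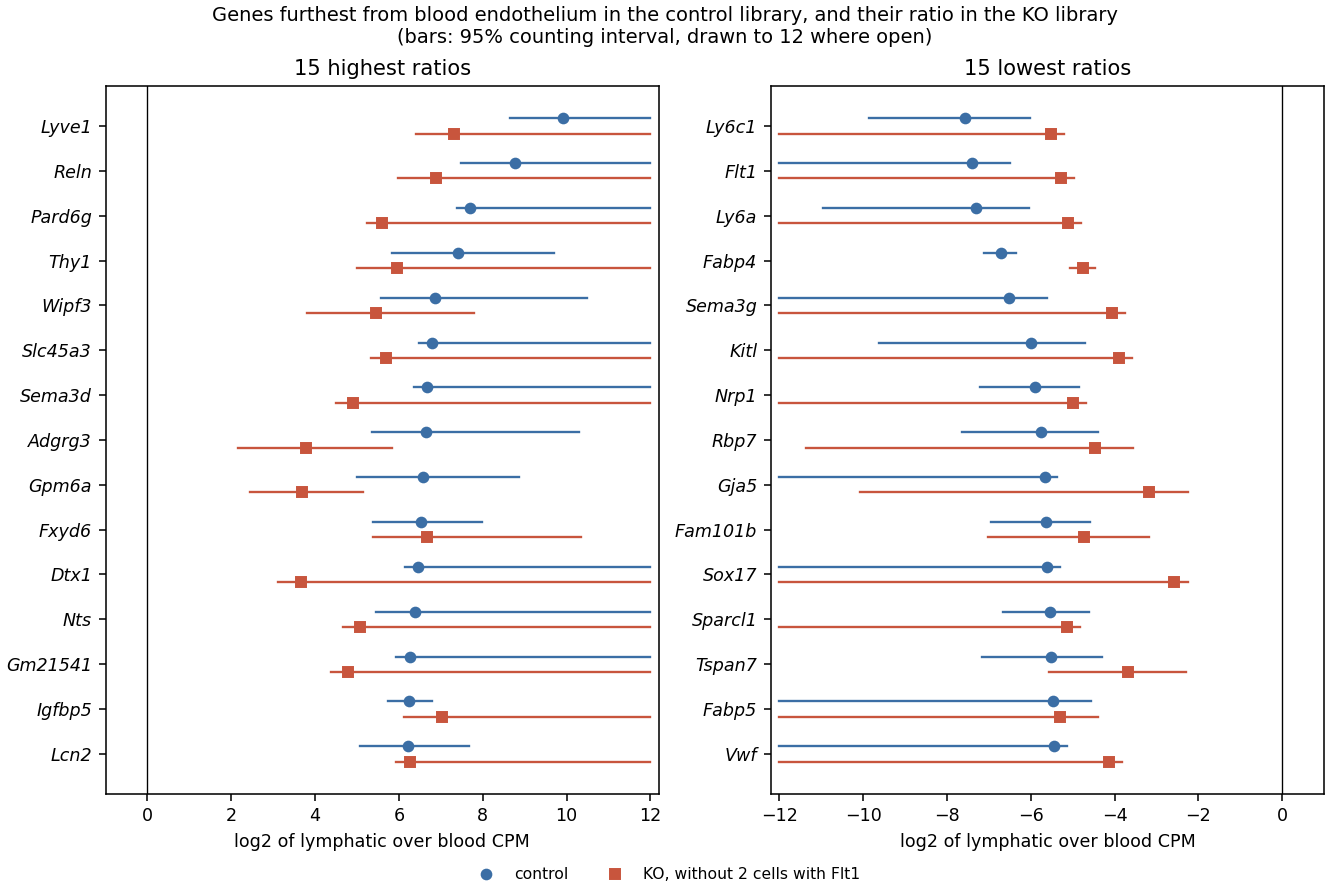
Log2 ratio of lymphatic over blood endothelial CPM for the 15 highest and the 15 lowest genes of the control library, in the control (blue circles) and in the KO library without 2 cells with Flt1 (red squares). Points use UMI sums under 3 set to 3, and bars are 95% counting intervals, drawn to 12 where they run past it. All 30 genes lie on the same side of 0 in both libraries, which was part of how they were chosen.

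The members were not uniform. Without the 3 cells named above, 40 of 52 control cells had at least 10 Lyve1 UMIs per 10000 and 12 had fewer, 9 of them with none. Among 12 KO cells, 7 were above this level and 5 below, 3 with none. The share above was 76.9% in the control (63.2 to 87.5%) and 58.3% in the KO library (27.7 to 84.8%). The level was chosen after the values were seen, and 3 control cells just above and 1 just below lay near it. The cells low in Lyve1 were not shallow, with a median of 6139 UMIs against 5667.5 in the control, and 13699 against 4780 in the KO library.

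In the control library, cells low in Lyve1 had less of some capillary genes and not of others. Of the 4 capillary genes other than Lyve1 that could be compared, 3 were at least 2-fold lower (Ccl21a, Reln and Fgl2) and Pdpn was not. Ccl21a was at 4652 CPM in these and 22421 in the others (log2 difference -2.27), Reln at 587 and 2400 (-2.03) and Fgl2 at 1865 and 4106 (-1.14). Outside that list, Mmrn1 was at 2913 and 6679 (-1.20) and Nrp2 at 276 and 885 (-1.68). Prox1 was at 1013 and 1134 (-0.16, but at 671 and 1221 in the KO library, -0.86), Maf at 1267 and 1452 (-0.20) and Pdpn at 299 and 301 (-0.01). Higher in the cells low in Lyve1 were Adm, the peptide adrenomedullin (66 and 14 UMIs, 3.68), Plvap, a diaphragm protein of fenestrae (56 and 15, 3.34), Nsg1 (64 and 29, 2.59), Klf2 (46 and 43, 1.54), Fn1 (38 and 39, 1.41) and Fxyd6 (118 and 143, 1.17). In the KO library Klf2 went the other way, and was lower in cells low in Lyve1 than in the others (49 UMIs, 1534 CPM). Of 637 genes compared, 30 were at least 2-fold higher and 43 lower, and of 192 in the KO library 32 were higher and 12 lower. The same cells gave the split and the values, so this is a description.

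Most cells low in Lyve1 carried Foxc2 UMIs, 8 of 12 in the control and all 5 in the KO library, beside 12 of 40 and 3 of 7 cells high in Lyve1. Cldn11 was found in 6 of 12 and 3 of 5 cells low in Lyve1, and in 3 of 40 and none of 7 cells high in it. The KO cells low in Lyve1 were deeper, and Foxc2 was at 218 CPM in these and 157 CPM in the others. Foxc2 had 41 UMIs in 20 of 53 control cells, 24 of them in the 12 cells low in Lyve1 (276 CPM against 72.0), and Cldn11, a claudin, 16 UMIs in 9 cells, 11 of them in these 12. In the control library, 1 cell had 9 Foxc2, 3 Cldn11, 11 Gja4 (connexin 37) and 11 Prox1 UMIs with no Ccl21a or Lyve1 UMI. Another had 4 Foxc2, 4 Cldn11, 3 Gja4 and 7 Prox1 UMIs, also with no Ccl21a or Lyve1, but 9.96% mitochondrial UMIs and 9 Dcn UMIs, near both limits. In the KO library 1 cell had 5 Foxc2, 7 Cldn11, 2 Gja4 and 14 Prox1 UMIs, again with no Ccl21a or Lyve1. In blood endothelium, Foxc2 had 2 and 2 UMIs in the control and KO libraries and Cldn11 0 and 0. These 3 cells were singled out after their values were seen.

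**Figure D4:**
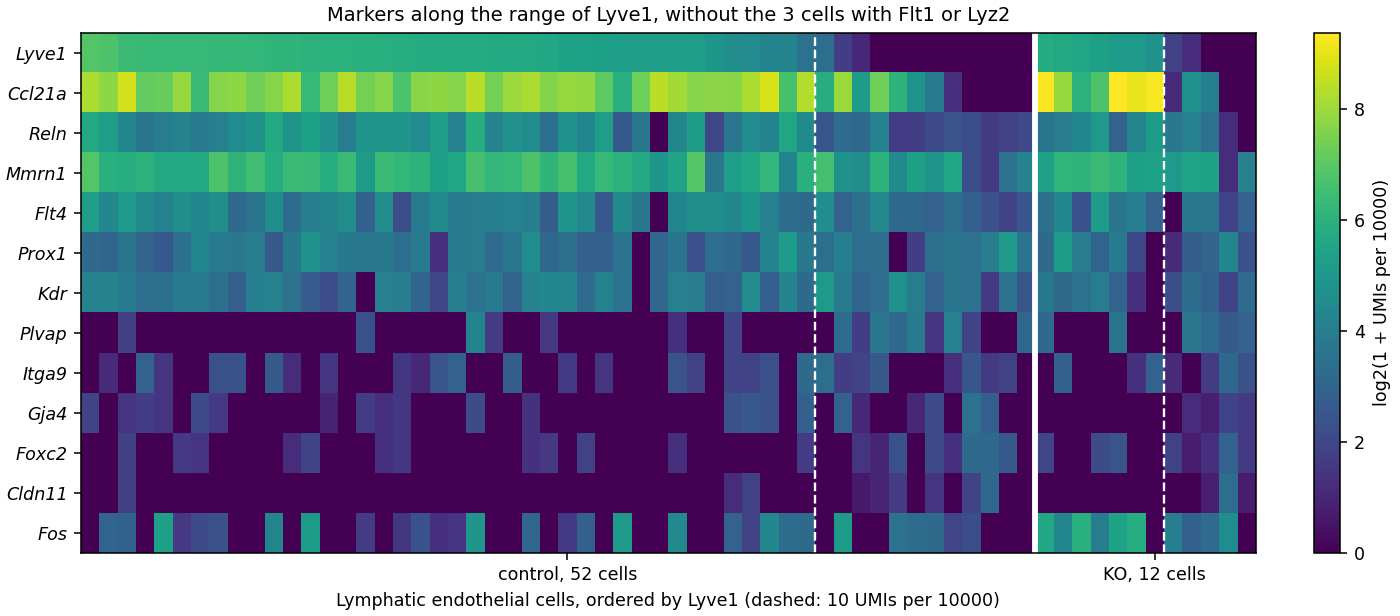
Expression of 13 genes in each lymphatic endothelial cell, as log2 of 1 plus UMIs per 10000, for 52 control and 12 KO cells ordered by Lyve1 from left to right within each library, without the 3 cells with Flt1 or Lyz2. Dashed lines mark 10 Lyve1 UMIs per 10000, and the cells to their right have less Ccl21a and Reln. Prox1 was at a similar level there in the control and lower in the KO library, and 8 of 12 control and all 5 KO cells to the right have Foxc2 UMIs.

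Pgam1 itself (chr19:41911923-41918660) was low in lymphatic cells, and its counts were too few to show a difference between the libraries. It had 24 UMIs in control cells (73.4 CPM, 47.0 to 109) and 8 in KO cells (67.9 CPM, 29.3 to 134), a log2 ratio of -0.11 (-1.48 to 1.09), and it was detected in 17 of 53 and 6 of 14 cells. Thinned to 2000 UMIs, 10.2% of control cells (5 of 49) and 7.69% of KO cells (1 of 13) had a Pgam1 UMI. The log2 ratio of Pgam1 was 0.04 with the 3 cells left out. The counts are from the 3′ end and do not show whether a deleted exon was read. Pgam2, the muscle isoform, had no UMI in either, with upper bounds of 11.3 and 31.3 CPM.

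Between the libraries, lymphatic cells of the KO had more immediate early gene RNA and less of several lymphatic markers. Of 924 genes compared, 50 were higher in the KO library by 2-fold or more (5.41%) and 51 were lower by as much (5.52%). Without the 3 cells with Flt1 or Lyz2, 33 (4.91%) and 30 (4.46%) of 672 genes were. In blood endothelium of the same libraries the counts were 37 (1.29%) and 83 (2.9%) of 2867. The 14 KO cells and the unequal depth set a wide counting error, and single cells weighed much. The cells with Flt1 held all 48 Vwf UMIs of the KO members and 1 of them 88.0% of the 911 Fabp4 UMIs. The non-coding locus Gm42418, which takes up ribosomal RNA reads, was at 44219 CPM in the control and 84630 CPM in the KO cells, and it was also higher in blood endothelium (log2 ratio 1.24). Its part in the differences was not tested.

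Of 11 immediate early genes compared, 7 were at least 2-fold higher in the KO library and none lower, with a median log2 ratio of 1.17 beside -0.06 over all genes. Without the 3 cells 5 of 9 were higher, with a median of 1.09, and in blood endothelium none of 14 was higher, with a median of 0.19. Fos, a subunit of the AP-1 factor induced within minutes of a stimulus, had 199 UMIs in 31 of 53 control cells, with a median of 1 per cell (0 to 24). Among the KO cells it had 248 UMIs in 12 of 14 cells, with a median of 12 (0 to 59), so the ranges overlapped. These counts per cell are not scaled to depth, and the KO members were deeper (median 7245.5 UMIs against 5813). The log2 ratio of the scaled Fos sums was 1.79 (1.52 to 2.07), and 1.82 without the 3 cells, beside 0.86 (0.66 to 1.05) in blood endothelium. Jun had 239 and 194 UMIs (1.17, 0.89 to 1.45), Junb 192 and 180 (1.38, 1.08 to 1.68) and Egr1 80 and 95 (1.72, 1.28 to 2.17) in control and KO cells. With the 3 cells left out the ratios were 1.09 for Jun, 1.09 for Junb and 1.30 for Egr1. In blood endothelium they were 0.12 for Jun, 0.26 for Junb and 0.69 for Egr1. Immediate early genes also respond to the digestion of tissue, whose part in the difference was not tested.

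Klf2 had 90 UMIs in control and 170 in KO cells (log2 ratio 2.39, 2.01 to 2.78, and 1.88 without the 3 cells), while in blood endothelium it was at -0.55 (-0.72 to -0.37). Other genes higher in both settings were Tmsb10, an actin-binding peptide (280 and 293 UMIs, 1.54, and 1.82 without the 3 cells), Slfn2 (36 and 49, 1.92), Apoe, the apolipoprotein (49 and 96, 2.44), Igfbp7 (34 and 64, 2.39), the prostaglandin transporter Slco2a1 (33 and 57, 2.26), the MHC class I gene H2-K1 (108 and 131, 1.75) and Lrg1 (114 and 134, 1.71). With the 3 cells left out these were at 2.14 for Slfn2, 1.88 for Apoe, 2.19 for Igfbp7, 2.10 for Slco2a1, 1.65 for H2-K1 and 1.52 for Lrg1. In blood endothelium Tmsb10 (1.40) and Lrg1 (1.51) were also higher, while Apoe (0.02) and H2-K1 (-0.06) were close to 0. Fabp4 was 5.37 log2 units higher with all cells and 2.51 without the 3 cells. Cd36 (2.36, then 0.47), Vwf and Aqp1 (1.62, then -1.44) were high in the KO library through the cells with Flt1. Clu (2.72), Sparc (2.19) and Zfp36 (2.18) completed the 10 highest ratios over all cells, but without the 3 cells they had too few UMIs to be compared (2.34, 0.96 and 1.28).

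Of 15 lymphatic markers outside the rule that could be compared, 8 were lower in the KO library by 2-fold or more and none higher, with a median of -1.02. Without the 3 cells 4 of 12 were lower and 1 (Clca3a1) higher, with a median of -0.61. Lyve1 went from 4194 CPM (3975 to 4421) to 1179 CPM (991 to 1392), a log2 ratio of -1.83 (-2.09 to -1.58), and -1.48 without the 3 cells. Fgl2 was at -1.40 and -1.11, Nrp2 at -1.27 and -1.09, Pdpn at -2.13 and -1.78, and Reln at -1.11 and -0.77. Fxyd6 (-0.08, then 0.27) and Stab1 (-0.06, then 0.15), a scavenger receptor, did not go with them. Igfbp5 had 1150 and 114 UMIs (-1.86, and -1.52 without the 3 cells), with 43.9% of the KO UMIs in 1 cell, and Notch1 173 and 38 (-0.71, and -2.16 without them).

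The KO cells low in Lyve1 held 59657 of the 91604 UMIs left without the 2 cells with Flt1, and the control cells low in Lyve1 86852 of 323103, so the sums mixed these cells in different shares. Compared among cells high in Lyve1, the KO against control log2 ratio was -0.45 for Lyve1, -0.53 for Reln, -1.13 for Fgl2 and -1.49 for Igfbp5, and Ccl21a was higher at 0.92. Lyve1 itself chose these cells, so its smaller ratio there follows in part from that choice. For Nrp2 the ratio there was -0.65 (-1.43 to 0.04). Among cells low in Lyve1, Reln was at 0.51, Fgl2 at -0.32, Igfbp5 at -1.98 and Ccl21a at -2.16. Igfbp5 was thus lower in both ranges, and Reln was not. Fos was higher in both, by 2.76 (2.41 to 3.11) among 7 and 40 cells high in Lyve1 and by 0.93 (0.30 to 1.57) among 5 and 12 cells low in it. Junb was at 1.16 and 1.15 and Tmsb10 at 1.12 and 1.83 in the high and low ranges. Klf2 was at 3.08 in the high and 0.48 in the low range.

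The lower haemoglobin RNA of the KO library rested largely on 2 control cells. Hbb-bs had 2003 UMIs in control and 58 in KO lymphatic cells (log2 ratio -3.64), Hba-a1 828 and 15 and Hba-a2 680 and 11. In the control library, 1 cell held 1665 and another 161 of the Hbb-bs UMIs, and the median cell had 3 UMIs among control and 4 among KO members. Without these 2 cells the log2 ratio was -0.17 for Hbb-bs, 0.16 for Hbb-bt, -0.72 for Hba-a1 and -1.27 for Hba-a2. In blood endothelium Hbb-bs was at -2.17 (2046 and 209 UMIs). The 10 lowest ratios over all cells were those of Hba-a2, Hba-a1, Cd74, Hbb-bs, Hbb-bt, Atp13a3, Pdpn, Pcsk6, Dtx1 and Tgfb2. Cd74, Pdpn and Tgfb2 had too few UMIs to be compared without the cells with Flt1 or Lyz2. Atp13a3, a polyamine transporter, had 117 and 9 UMIs (-2.23) and was also lower in blood endothelium (-1.40), while Dtx1 and Pcsk6 were hardly detected there.

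**Figure D5:**
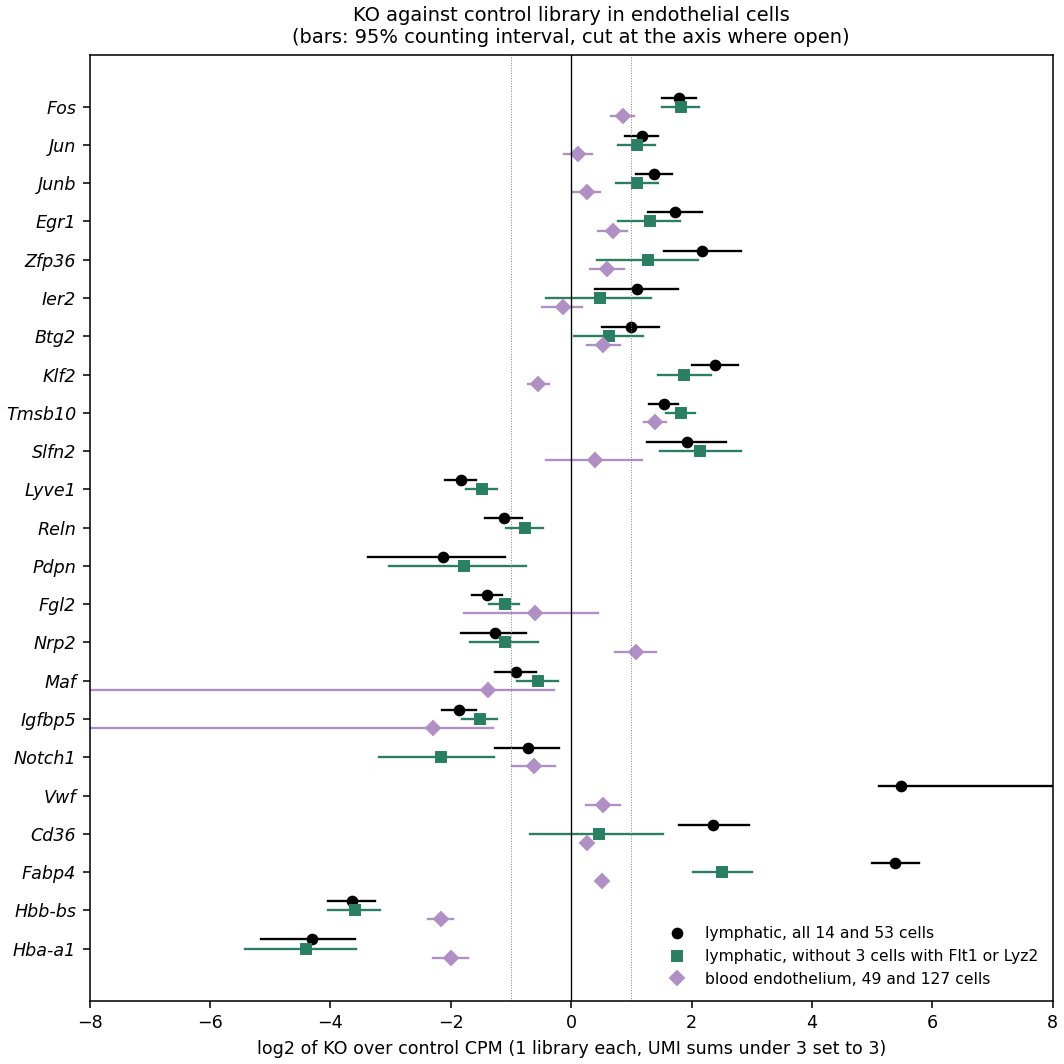
Log2 ratio of KO over control CPM for 23 genes in lymphatic cells (black circles, all 14 and 53 cells), in lymphatic cells without 3 cells with Flt1 or Lyz2 (green squares) and in blood endothelium (purple diamonds, 49 and 127 cells). Bars are 95% counting intervals, dotted lines mark 2-fold, and no point is drawn where both sums were at most 3 UMIs. Fos, Jun, Junb and Egr1 lie further to the right in lymphatic cells, Lyve1, Fgl2 and Igfbp5 to the left, and the points of Cd36 and Fabp4 move with the cells left out.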

How the data were processed

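SVF single-cell libraries (10x Chromium 3′, version 3 chemistry) of 1 control and 1 KO sample were analysed. The deposited values are whole-number UMI counts per gene and barcode, which the authors made with Cell Ranger 3.0.1 on mm10 (per the labels, with Seurat 3.1.5 and R 4.0.1 also named), without normalization. The libraries held 8522 barcodes with 42859406 UMIs and 2730 with 13821581. For each kind of cell, the UMIs of all its cells were added up and scaled to the total (CPM). Genes were compared when the mean CPM times the smaller total was at least 20 UMIs, counts under 3 were set to 3 for counts of genes and medians, and at least 2-fold was called. Intervals are exact (Poisson, Clopper-Pearson, conditional binomial). Lymphatic members were left out of all other kinds of cell. Blood endothelial cells had at least 3 UMIs of Pecam1, Cdh5 and Egfl7, at least 1 of Pecam1 or Cdh5, no Prox1 or Mmrn1 UMI and the same limits for Ptprc and Dcn, and lymphocytes at least 1 Ptprc and 3 Cd3d, Cd3e, Cd3g, Cd79a and Cd79b UMIs. Doublets were scored with Scrublet (scanpy 1.11.5) and removed only as an alternative. 

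Named genes are those of the rule, Pgam1 and Pgam2, members of 36 lists, the 15 highest and lowest ratios against blood endothelium with the same sign in both libraries, the 10 highest and lowest between libraries and the 15 most abundant genes. The members and lists were chosen with earlier results of these data known. Alternatives changed the cell filter, the gate, the scaling (TMM of edgeR 4.0.16, median-of-ratios), the weight of cells, the minimum and the totals, and leaving out the cells with Flt1 or Lyz2 or with haemoglobin was added after seeing the data. All 409 named genes were found in GENCODE vM21 (GRCm38). The steps were tested on simulated data. Statistics used scipy 1.17.1, numpy 2.4.6 and pandas 2.3.3 under Python 3.11.15, and R 4.3.3.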

Additional observations from a re-analysis of the deposited data

Results flagged for a closer look

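Nrp2 went in opposite directions in the 2 kinds of endothelium. From control to KO it was lower in lymphatic cells, with 234 and 35 UMIs (log2 ratio -1.27, and -1.09 without the cells with Flt1 or Lyz2, and -0.65, -1.43 to 0.04, among cells high in Lyve1), and higher in blood endothelial cells, with 145 and 140 UMIs (1.07), of which 22.1% of the KO UMIs were in 1 cell. Nfkbiz was lower in lymphatic than in blood endothelial cells of the control library, with 12 and 62 UMIs (-1.30), and higher in the KO library, with 30 and 33 (1.29). Nrp2 was also higher in lymphatic than in blood endothelial cells of the control library. In the KO library it was lower by less than 2-fold, with an interval that covered 0 without the 2 cells with Flt1. By share of cells, Nrp2 was detected in 71.4% of KO lymphatic and 46.9% of KO blood endothelial cells. With 1 library per genotype none of these differences was tested.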

How the results depend on the processing

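With 1 library per genotype, depth and 14 KO cells limit what can be seen, and no alternative adds a replicate. No paired analysis was possible because each genotype had 1 library. Of 1009 alternative values of 73 log2 ratios of 65 genes, 998 kept the sign of the reported value. Most of these genes were picked for extreme ratios in the same data, and 953 of the values had a reported ratio past 2-fold. The kept signs therefore say little about smaller ratios. Under a filter of 1000 genes and 5% mitochondrial UMIs, 30 control and 3 KO lymphatic cells were left (44.8% of control endothelial cells, 0.698% of kept KO cells). Between libraries 23 genes were then higher and 6 lower (79.3% of them higher), the immediate early gene median was 1.52, and these genes changed sign: Cd74 (-0.17 against blood, 0.58 between libraries), Hba-a1 (0.35), Hbb-bt (0.46) and Aqp1 (-1.95). Under a filter of 200 genes and 20%, 96 control cells met the rule. With a minimum of 10, 50 or 1 UMIs, 574, 119 or 2178 genes were higher and 713, 158 or 1296 lower against blood endothelium, and 131, 19 or 1994 higher and 158, 15 or 529 lower between libraries. At 1 UMI 62.7% and 79.0% of them were higher, and the fatty acid uptake median was -2.19. Without the 3 cells with Flt1 or Lyz2, 33 genes were higher and 30 lower between libraries, and the MHC class II median and Cd74 (both -0.40), the blood endothelial median between libraries (-0.067) and Aqp1 (-1.44) changed sign. Cd36 was at -0.24 under the stricter gate, Hbb-bt at 0.16 without the cells rich in haemoglobin and Reln at 0.51 in cells low in Lyve1. Without thinning, Pgam1 was detected in 32.1% and 42.9% of cells (thinned 10.2% and 7.69%). Apart from the changes that follow from fewer cells or genes, the cause was not tested.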

Other observations

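By CPM, which in 3′ counting is not scaled by transcript length, the 15 most abundant genes of the control lymphatic cells outside the mitochondrial and ribosomal protein genes were Gm42418, Malat1, Ccl21a, Fth1, Hbb-bs, Tmsb4x, Mmrn1, Timp3, Lyve1, Igfbp5, Fgl2, Tpt1, Actb, Eef1a1 and Sdpr. Ferritin heavy chain (Fth1) was at 6266 CPM (5998 to 6543), and Sdpr, a protein of caveolae, at 2546 CPM (2376 to 2725).

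Of 14 interferon response genes, the 2 compared between the libraries did not pass 2-fold (median log2 ratio 0.04). Ifit1 had 33 UMIs in 3 of 14 KO cells, with 87.9% in 1 cell, and 5 UMIs in 3 of 53 control cells. Isg15 had 23 UMIs in 4 KO cells, with 78.3% in 1 cell, and 9 UMIs in 8 control cells. Ifit1 and Isg15 were under the minimum for a comparison and were chosen after their values were seen.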
